A study of Homo sapiens with 12 samples.

Results

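The 10 genes described here encode the transforming growth factor beta ligands TGFB1, TGFB2 and TGFB3, the receptors TGFBR1, TGFBR2 and TGFBR3, the latent binding proteins LTBP1, LTBP2 and LTBP3, and TGFBI, a secreted matrix protein named for its induction by the ligands. They were taken by symbol, and all 10 were found among the 20114 symbols of the RNA tables. The RNA came from a cabozantinib-resistant subline and from its parent, Caki-1, an established cell line of human kidney carcinoma, with 2 libraries of each. Cabozantinib is an inhibitor of MET, AXL, VEGF receptors and other kinases. Of 12 samples in the series, 4 were RNA, 4 were H3K27ac immunoprecipitates and 4 were DNA inputs, and only the RNA is used here. Per the labels, both lines were grown with 10% serum, and no engineered allele is named for either. Selection took place in McCoy's 5A medium, with cabozantinib raised over 2 months between 5 µM and 20 µM, and the resistant subline was afterwards held at 10 µM. For the parental cells the labels give RPMI 1640 and no drug, so drug, medium and selection cannot be told apart. The resistant line is a single selected derivative of 1 parental line, and nothing in the labels says that the replicates were separate cultures. The p-values therefore measure only the spread between these libraries, which may be technical.

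TGF-beta ligands are made as precursors whose cut-off propeptide stays wrapped around the mature dimer and keeps it inactive. In the cell the propeptide is joined to a latent binding protein, which stores the complex in the matrix until integrins, proteases or thrombospondin release the ligand. Free ligand brings together TGFBR2 and TGFBR1, both serine/threonine kinases, and TGFBR1 then phosphorylates SMAD2 and SMAD3, while TGFBR3, also called betaglycan, presents ligand and is needed most for TGFB2, which binds TGFBR2 weakly. In kidney epithelium the pathway is known for restraining growth and for inducing matrix genes and mesenchymal features.

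The ligand genes are shown first by the 250 bases before each transcript start, since TGFB2 was the ligand that changed and its window differs in its letters from that of TGFB1, the most abundant ligand. The windows are from RefSeq on GRCh38.p14, each read 5′ to 3′ along the gene, and capitals mark TATAAA (the TATA box), GGGCGG (the GC box) or TGACGTCA (the cyclic AMP response element) on either strand. RefSeq promoter entries were found for all 10 genes.
TGFB1, chr19:41353923-41354172, minus strand: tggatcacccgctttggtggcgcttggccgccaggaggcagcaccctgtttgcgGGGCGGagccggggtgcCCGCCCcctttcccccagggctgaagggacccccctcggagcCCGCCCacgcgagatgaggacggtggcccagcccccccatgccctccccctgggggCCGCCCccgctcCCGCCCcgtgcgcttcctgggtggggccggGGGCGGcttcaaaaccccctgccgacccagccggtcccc
TGFB2, chr1:218345086-218345335, plus strand: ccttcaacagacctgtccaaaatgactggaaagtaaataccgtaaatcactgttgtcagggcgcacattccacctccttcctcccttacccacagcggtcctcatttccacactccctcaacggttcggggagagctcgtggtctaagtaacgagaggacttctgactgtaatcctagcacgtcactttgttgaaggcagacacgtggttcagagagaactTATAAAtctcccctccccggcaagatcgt
TGFB3, first start, chr14:75983012-75983261, minus strand: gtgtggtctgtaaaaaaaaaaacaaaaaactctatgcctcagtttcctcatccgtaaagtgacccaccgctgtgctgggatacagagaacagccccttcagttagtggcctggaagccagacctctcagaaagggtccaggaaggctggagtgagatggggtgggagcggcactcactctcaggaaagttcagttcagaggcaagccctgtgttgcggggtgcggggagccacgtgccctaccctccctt
TGFB3, second start, chr14:75981996-75982245, minus strand: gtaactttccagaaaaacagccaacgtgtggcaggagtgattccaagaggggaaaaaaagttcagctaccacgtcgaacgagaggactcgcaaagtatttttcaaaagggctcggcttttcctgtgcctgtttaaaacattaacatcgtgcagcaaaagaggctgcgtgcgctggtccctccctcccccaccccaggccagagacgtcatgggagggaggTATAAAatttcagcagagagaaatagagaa
The TGFB2 window holds 1 TATAAA, which begins 29 bases before the start, and 0 GGGCGG. The TGFB1 window holds 6 GGGCGG and 0 TATAAA, and 76.8% of its bases are G or C, against 50.4% for TGFB2. For TGFB3 the first listed start has neither motif, and the second has 1 TATAAA that begins 30 bases before the start. Over all 35116 promoter windows of this length 10.7% held TATAAA and 42.6% held GGGCGG. These matches are letters in a window, and the starts used in these cells were not measured.

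Library totals were 14664712 and 12851392 estimated counts in the resistant line, and 10605109 and 10584085 in the parental line. The resistant libraries stood apart from each other: the chi-square statistic between replicates averaged 48.5 per gene in the resistant pair and 1.94 in the parental pair, and the median absolute log2 difference between replicates was 0.33 and 0.09. The difference within the resistant pair ran with gene length, here split into 4 equal classes of effective length, class 1 the shortest. In class 1 the median log2 ratio of resistant replicate 2 to replicate 1 was 0.39, and in class 4 it was -0.42, while the parental pair had medians from -0.01 to 0.00 in the 4 classes. Of 9 kidney tubule and renal carcinoma markers, PAX2 and LRP2 had 0 counts in all 4 libraries, CA9 had at most 1.09 CPM, and PAX8, the defining renal transcription factor, had 352 and 427 CPM in the resistant line and 557 and 572 CPM in the parental line. CDH16, a kidney cadherin, rose to 14.5 and 20.3 CPM in the resistant line, against 4.67 and 7.46 CPM in the parental line (adjusted p = 0.0459 in edgeR), and the 9 markers summed to 3641 and 4262 CPM in the resistant line and 5239 and 5236 CPM in the parental line. Most of these sums was VIM, vimentin, which is also a mesenchymal gene, with 2814 and 2993 CPM in the resistant line and 4064 and 4059.9 CPM in the parental line (adjusted p = 0.11 in edgeR). CPM is the count scaled by library size and TMM factor. Calls are those of the quasi-likelihood test in edgeR, at a threshold of 0.05 on p-values adjusted by Benjamini-Hochberg over all 12792 tested genes. Of these genes 379 rose (2.96%) and 436 fell (3.41%) in the resistant line, 6.37% in all.

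Per unit of length, the order of the 10 genes was led in both lines by TGFBI, LTBP3 and TGFB1. TPM, the deposited level per transcript length, was 673.81 and 784.26 for TGFBI in the resistant libraries and 702.83 and 675.67 in the parental libraries. The values of each of these 3 genes did not overlap those of the next gene in the order. TGFBR2, LTBP2 and TGFBR1 followed, with TPM from 7.42 to 18.46 in the resistant line, where their ranges overlapped, and from 11.55 to 15.68 in the parental line, where they did not. TGFB2 came next in both lines, and TGFB3, LTBP1 and TGFBR3 were lowest, at 0.25 to 1.27 TPM in the resistant line with overlapping ranges and 0.53 to 1.20 in the parental line.

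**Figure D1:**
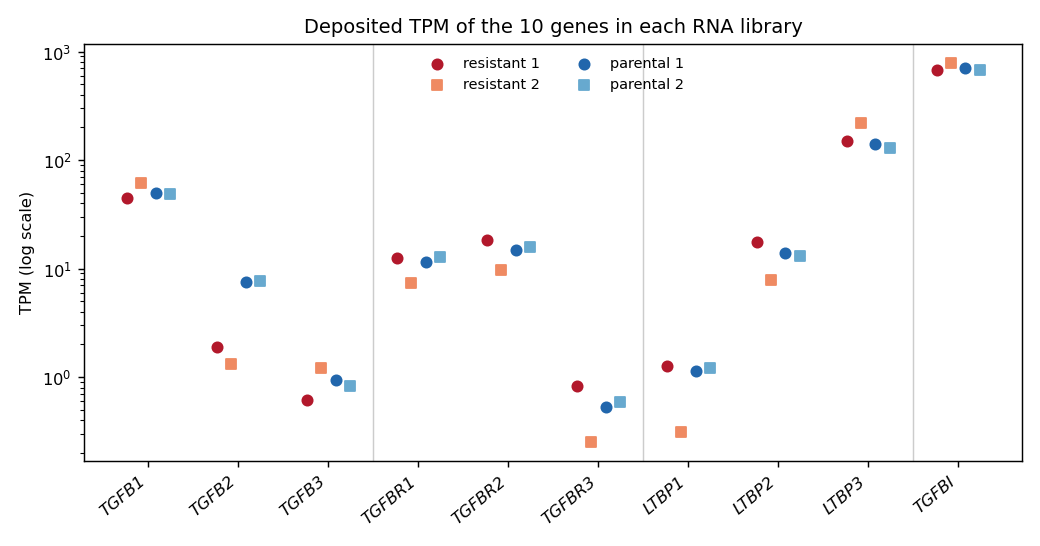
Deposited TPM (log scale) of the 10 genes in each RNA library, with resistant libraries in red and parental libraries in blue, and 1 point per library. TGFB2 is at 1.90 and 1.33 TPM in the resistant libraries, below 7.48 and 7.62 in the parental libraries, and LTBP1 at 1.27 and 0.31 TPM in the resistant libraries lies on both sides of 1.13 and 1.20 in the parental libraries.

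All 10 genes passed the filter on low counts. Of these, 1 fell in the resistant line, 0 rose and 9 did not pass the test. The 1 call is 10.0% of the 10, against 6.37% of all tested genes, and the median log2 fold change was -0.07 against 0.02 for all tested genes. An unadjusted p under 0.05 was reached by 2 of the 10, TGFB2 and LTBP1, against 27% of all tested genes, and these are also the 2 that DESeq2 called lower, with 0 higher. DESeq2 called 10.5% of all tested genes, 4.76% higher and 5.76% lower. The share of all genes called was 17.5% with a correction for effective length, 14.7% with a replicate block and 0.865% on log2(TPM + 1) without a filter. It was 52.8% without resistant replicate 1, 35.1% without resistant replicate 2, 3.22% without parental replicate 1 and 3.07% without parental replicate 2, and calls among the 10 genes in those fits are to be read against these shares.

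Among the ligands, TGFB2 fell in the resistant line. It had 103 and 73 counts in the resistant libraries and 284 and 295 in the parental libraries, or 6.66 and 5.67 CPM against 27.7 and 28.6 CPM. Both resistant libraries lay far below both parental libraries, and the parental mean was 4.55 times the resistant one in the fit. The means were 6.16 ± 0.699 CPM in the resistant line and 28.1 ± 0.667 CPM in the parental line (SD, n = 2 each), a log2 fold change of -2.18 ± 0.19 (SE) with an adjusted p of 0.00602 in edgeR. Leaving out any 1 library kept the call, with log2 fold changes from -2.30 to -2.08. TGFB2 belongs to length class 4, and with a correction for effective length its log2 fold change was -2.02 (adjusted p = 0.0013 in edgeR). In bulk RNA, fewer cells that make a transcript and less of it per cell cannot be told apart. An antisense gene, TGFB2-AS1, overlaps TGFB2 in RefSeq and is not used here. Whether the counting used strand is not given in the sources used here, so whether antisense reads were counted with TGFB2 was not tested.

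TGFB1, the ligand most widely made by epithelial and immune cells, split the resistant pair. It measured 81.6 and 137 CPM in the 2 resistant libraries and at 95.6 and 95.3 CPM in the parental libraries. Resistant replicate 1 was below both parental libraries and replicate 2 above both. The log2 fold change was 0.20 ± 0.25 (SE, adjusted p = 0.651 in edgeR). Without resistant replicate 1 it was 0.53 (adjusted p = 0.00203), and without resistant replicate 2 it was -0.23 (adjusted p = 0.0337), so the direction rests on which library is kept.

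TGFB3, a ligand known for its part in palate and lung development, rested on 16 and 32 counts in the resistant libraries and 17 and 15 in the parental libraries. Its levels were 1.03 and 2.49 CPM in the resistant line and 1.66 and 1.45 CPM in the parental line, with the resistant pair again on both sides (log2 fold change 0.16 ± 0.52, adjusted p = 0.868 in edgeR).

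By TPM, TGFB2 made up 4.05% and 2.10% of the 3 ligands' transcripts in the resistant libraries, against 13.0% and 13.5% in the parental libraries. TGFB1 made up 94.6% and 96.0% in the resistant line, against 85.4% and 85.1% in the parental line. The summed TPM of the ligands was 46.93 and 63.36 in the resistant libraries and 57.72 and 56.53 in the parental libraries, so the sums overlapped while the TGFB2 shares did not. With 2 libraries against 2, an exact two-sided permutation test cannot give a p below 0.333, and these shares carry no test.

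**Figure D2:**
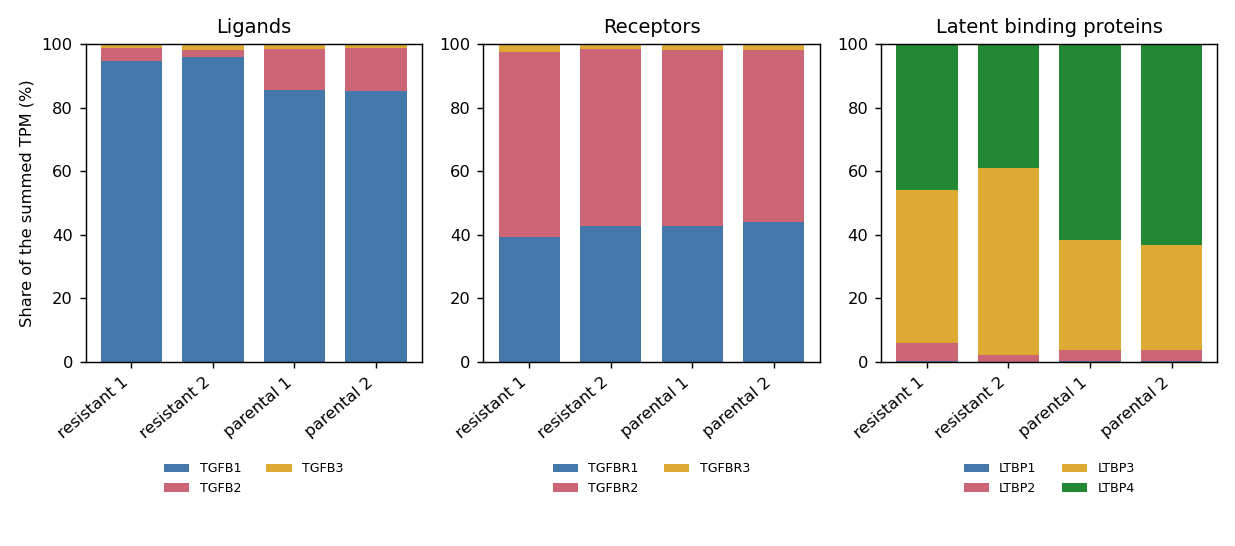
Share of the summed TPM (%) within the ligands, the receptors and the 4 latent binding proteins (LTBP4 included), 1 bar per library, resistant libraries left of parental ones. TGFB2 takes 4.05% and 2.10% of the ligands in the resistant libraries against 13.0% and 13.5% in the parental libraries, and LTBP4 takes 46.0% and 39.1% of the latent binding proteins against 61.8% and 63.2%.

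The signalling receptors did not pass the test. TGFBR1, the type I kinase that activates SMAD2 and SMAD3, had 58.2 and 42.1 CPM in the resistant libraries and 51.8 and 58.7 CPM in the parental libraries. Resistant replicate 1 lay within the parental values and replicate 2 below them (log2 fold change -0.14 ± 0.20, adjusted p = 0.692 in edgeR). TGFBR2, the type II kinase that binds ligand first, measured 59.7 and 38.0 CPM in the 2 resistant libraries and 51.0 and 54.3 CPM in the parental libraries. Here the resistant libraries lay on opposite sides of both parental ones (log2 fold change -0.11 ± 0.24, adjusted p = 0.801 in edgeR).

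TGFBR3 had 58 and 18 counts in the resistant libraries and 24 and 30 in the parental libraries. In CPM these were 3.75 and 1.4 in the resistant line and 2.34 and 2.91 in the parental line, on both sides once more (log2 fold change -0.01 ± 0.52, adjusted p = 0.994 in edgeR). By TPM, TGFBR1 and TGFBR2 made up 39.4% and 58.0% of the 3 receptors in resistant replicate 1 and 42.8% and 55.7% in replicate 2. In the parental libraries TGFBR1 made up 42.7% and 43.9% and TGFBR2 55.3% and 54.1%. The summed receptor TPM was 31.81 and 17.32 in the resistant libraries and 27.03 and 29.0 in the parental libraries, so the sum moved within the resistant pair more than the proportion of the kinases did.

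Without resistant replicate 1, TGFBR1 and TGFBR2 were called lower (log2 fold changes -0.39 and -0.47, adjusted p = 0.0345 and 0.0111 in edgeR). Without resistant replicate 2 neither was called, and both values were positive (0.07 and 0.17). All 3 receptors belong to length class 4. With the correction for effective length their log2 fold changes were 0.06, 0.03 and 0.14, with adjusted p-values of 0.768, 0.914 and 0.842 in edgeR.

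LTBP1, which binds the propeptides of all 3 ligands, was lower in both resistant libraries, but its call depends on the tool. It had 25 and 9 counts in the resistant libraries and 44 and 43 in the parental libraries, or 1.62 and 0.699 CPM against 4.28 and 4.17 CPM. The lines did not overlap in CPM, as was the case for 60.6% of all tested genes. The log2 fold change was -1.83 ± 0.44 (SE), with an adjusted p of 0.0681 in edgeR and 0.0298 in DESeq2. With the correction for effective length edgeR called it lower (-1.79, adjusted p = 0.0314). Without resistant replicate 1 or 2 edgeR called it lower as well (adjusted p = 0.00495 and 0.0225), and without parental replicate 1 or 2 it did not (0.170 and 0.158).

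Per length the lines overlapped for LTBP1, and the length that the authors' estimates assign to it differed between the lines. The TPM were 1.27 and 0.31 in the resistant libraries and 1.13 and 1.20 in the parental libraries, so resistant replicate 1 was not below the parental line on this scale. The ratio of count to TPM, scaled to the median gene of each library, gives the relative effective length of the transcripts that RSEM assigned. It was 0.703 and 1.03 in the resistant libraries and 1.98 and 1.79 in the parental libraries, a ratio of 0.459 of the resistant to the parental mean. In the other 9 genes the same ratio lay between 0.832 and 1.09. On log2(TPM + 1) the fold change of LTBP1 was -0.33 (adjusted p = 0.575 in limma). The gene is known to have a long and a short form from separate promoters. RefSeq lists 3 starts for LTBP1, the second of them 187 kb after the first. The windows before the first and second starts are given to show that they are unlike each other, with capitals as above, and with GRCh38.p14 positions.
LTBP1, first start, chr2:32946703-32946952, plus strand: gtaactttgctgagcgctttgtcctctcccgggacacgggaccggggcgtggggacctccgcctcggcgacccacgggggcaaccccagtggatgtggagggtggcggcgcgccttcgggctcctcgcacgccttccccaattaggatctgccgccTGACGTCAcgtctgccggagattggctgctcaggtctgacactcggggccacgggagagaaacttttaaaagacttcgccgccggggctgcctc
LTBP1, second start, chr2:33134119-33134368, plus strand: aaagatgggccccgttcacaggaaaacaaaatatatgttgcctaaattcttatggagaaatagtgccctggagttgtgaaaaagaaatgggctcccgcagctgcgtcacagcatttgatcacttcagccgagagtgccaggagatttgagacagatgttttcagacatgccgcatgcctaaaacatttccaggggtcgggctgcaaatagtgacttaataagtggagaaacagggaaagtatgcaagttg
The first holds 1 TGACGTCA, a motif found in 1.65% of all windows, which begins 94 bases before the start, and the second holds 0. Which start was used in either line was not tested, and the length estimate in resistant replicate 2 rests on 9 counts.

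LTBP2, a latent binding protein of elastic fibres that does not bind the ligands, had 100.1 and 59.1 CPM in the resistant libraries and 90.8 and 86.9 CPM in the parental libraries. The resistant libraries lay on opposite sides of the parental pair (log2 fold change -0.16 ± 0.26, adjusted p = 0.727 in edgeR). LTBP2 has the longest transcripts of the 10 genes, 3.35 times the median gene in effective length, and with the length correction its log2 fold change was 0.05 (adjusted p = 0.783). Without resistant replicate 1 it was called lower (-0.58, adjusted p = 0.00307).

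LTBP3, which binds TGFB1 and is the most abundant of the 3, measured 239 and 408 CPM in the 2 resistant libraries and 280.4 and 258 CPM in the parental libraries. Again replicate 1 was below and replicate 2 above both parental libraries in CPM. By TPM both resistant libraries lay above both parental ones, at 149.02 and 218.75 against 139.78 and 128.0. On log2(TPM + 1) the log2 fold change was 0.43 (adjusted p = 0.261 in limma). On counts LTBP3 had a log2 fold change of 0.26 ± 0.26 (adjusted p = 0.551 in edgeR). Without resistant replicate 1 it was called higher (0.60, adjusted p = 0.00191), and without replicate 2 its value was -0.18 (adjusted p = 0.074). Part of LTBP3 overlaps other annotation in RefSeq, so its reads are uncertain there.

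TGFBI, the matrix protein, measured 1039 and 1229 CPM in the 2 resistant libraries and 1176 and 1145 CPM in the parental libraries. The resistant pair lay just outside the parental pair on both sides (log2 fold change -0.03 ± 0.16, adjusted p = 0.908 in edgeR). Without resistant replicate 2 it was called lower by a small amount (-0.17, adjusted p = 0.0222), and without replicate 1 it was not called (0.09, adjusted p = 0.0895).

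**Figure D3:**
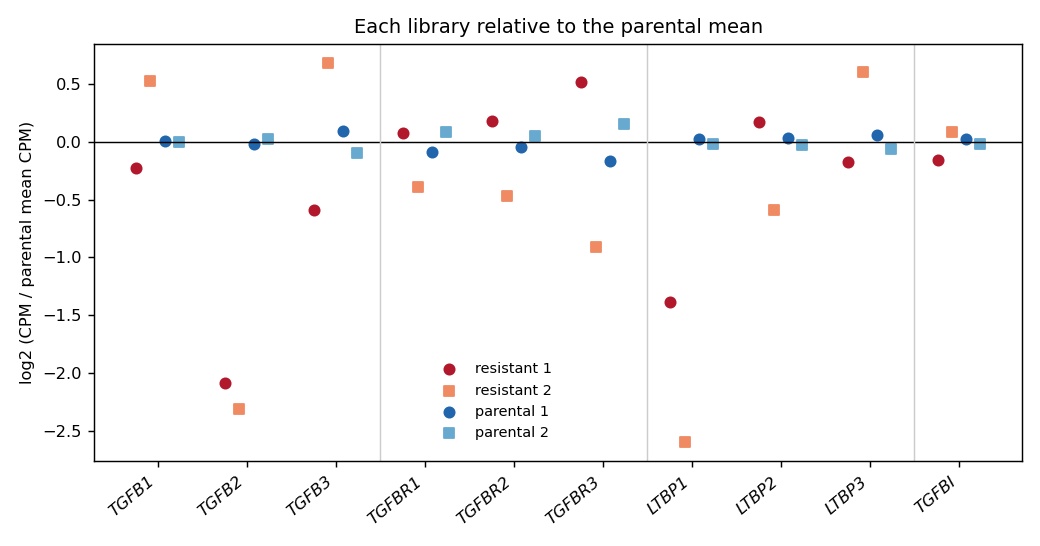
Log2 of each library's CPM over the parental mean, 1 point per library, resistant libraries in red and parental libraries in blue. TGFB2 and LTBP1 lie below the parental pair in both resistant libraries, at -2.08 and -2.31 and at -1.39 and -2.60, and in 7 other genes the resistant libraries lie on opposite sides of both parental ones.

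In 7 of the 10 genes the resistant libraries lay on opposite sides of both parental libraries in CPM, a pattern that 19.7% of all tested genes had. Replicate 1 was the higher one in 3 of them, TGFBR2, TGFBR3 and LTBP2, which all belong to length class 4. Replicate 2 was the higher one in the other 4, TGFB1, TGFB3, LTBP3 and TGFBI, which lie in classes 2 and 3. By TPM, LTBP3 did not have this pattern, since both resistant libraries lay above both parental ones. Length class did not set the order in every gene. In class 3 the median log2 ratio of replicate 2 to replicate 1 was -0.12, so TGFB1 went against its class. LTBP1 is also put in class 3, by a mean of lengths that differed between the lines. It went the way of that class, with a log2 ratio of replicate 2 to replicate 1 of -1.21. In the 7 genes this ratio was -0.65, -1.42 and -0.76 in the longer 3 genes and 0.75, 1.26, 0.77 and 0.24 in the others. In TGFB2 it was -0.23, against a difference between the lines of over 2 on the same scale.

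TGFB2, the only call among the 10 genes, was also compared with all other tested genes by the distance of mean-centred log2 CPM over the 4 libraries. The nearest was CERS1, a ceramide synthase, at a distance of 0.03, with 4.46 and 3.81 CPM in the resistant libraries and 18.6 and 19.8 CPM in the parental libraries. CERS1 shares its locus with GDF1, which had 21 and 63 counts in the resistant libraries and 0 in both parental libraries, so the split of reads between them is uncertain. PLOD2, a collagen lysyl hydroxylase, followed at 0.103, with 177 and 167 CPM in the resistant libraries and 758 and 774 CPM in the parental libraries. C11orf52 was the next, at a distance of 0.112, and had 10 and 7 counts in the resistant libraries and 35 and 37 in the parental libraries.

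The rest of the pathway was read from 5 lists, which were chosen with earlier results of these data known. They held 97 genes outside these 10, of which 83 were tested. Of those, 14 fell, 1 rose and the others did not pass, while 3.41% of all tested genes fell and 2.96% rose. Genes for storage and release of latent TGF-beta were lower in 7 of 22 tested and higher in 0, and 15 missed the threshold. That is 31.8% called, against 6.37% of all tested genes. DESeq2 called 10 lower and 0 higher, where 5.76% of all tested genes were lower and 4.76% higher. An unadjusted p under 0.05 in either direction was reached by 12 of the 22, against 27% of all tested genes. The list's median log2 fold change was -0.60 against 0.02 for all tested genes. Among the 12, ITGB6, an integrin chain named after its value was seen, was higher in the resistant line. It had 42.2 and 44.2 CPM in the resistant libraries, against 25.7 and 31.0 CPM in the parental libraries (log2 fold change 0.61, adjusted p = 0.0919 in edgeR). The rest of the 12 were lower. By the rule for named genes, the falls named from this list are DCN and BGN, matrix proteoglycans that bind the ligands. DCN fell to 1.03 and 0.233 CPM in the resistant libraries, against 12 and 13.3 CPM in the parental libraries (log2 fold change -4.24 ± 0.50, adjusted p = 0.0129 in edgeR). Its resistant values rest on only 16 and 3 counts, against 123 and 137 in the parental libraries. BGN fell to 6.92 and 8.70 CPM in the resistant libraries, against 24.1 and 27.1 CPM in the parental libraries (-1.72 ± 0.21, adjusted p = 0.0131).

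The next genes of this list are named after their values were seen. LTBP4, the other latent binding protein that joins TGFB1, fell to 369.9 and 383 CPM in the resistant libraries, against 725 and 692 CPM in the parental libraries (log2 fold change -0.91 ± 0.14, adjusted p = 0.0231 in edgeR). Its call ended without parental replicate 1 (adjusted p = 0.351) or 2 (0.277). THBS1, thrombospondin 1, which can release active ligand from the latent complex, fell to 179.6 and 168 CPM in the resistant libraries, against 557 and 524 CPM in the parental libraries. ITGB8, the integrin chain whose dimer with ITGAV holds and activates latent TGFB1 and TGFB3, fell to 39.8 and 35.7 CPM in the resistant libraries, against 82.2 and 87.8 CPM in the parental libraries. TGM2, a transglutaminase that crosslinks latent complexes to the matrix, fell to 134 and 129 CPM, against 312 and 311 CPM in the parental libraries. BMP1, a protease that cuts LTBP1, was the remaining one (log2 fold change -0.81), and its call ended without parental replicate 1 (adjusted p = 0.351) or 2 (0.39). That of ITGB8 ended without parental replicate 2 (0.0906).

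By TPM, LTBP4 took 46.0% and 39.1% of the 4 latent binding proteins in the resistant libraries, against 61.8% and 63.2% in the parental libraries. LTBP3 took 47.9% and 58.7% in the resistant libraries, against 34.5% and 33.1% in the parental libraries. LTBP3 was thus the more abundant of the pair per length in both resistant libraries and LTBP4 in both parental ones. In resistant replicate 1 the margin was small, at 149.02 TPM for LTBP3 and 143.13 for LTBP4. The relative effective length assigned to each was shorter in the resistant line, with ratios of the resistant to the parental mean of 0.832 and 0.885. Whether the order in that library holds with other length estimates was not tested.

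Receptor partners and genes of receptor turnover had 2 members lower and 0 higher of 19 tested. That is 10.5% called, against 6.37% of all tested genes, with a median log2 fold change of -0.12. DESeq2 called 3 lower and 0 higher, where it called 10.5% of all tested genes. An unadjusted p under 0.05 in either direction was reached by 6 of the 19, against 27% of all tested genes. SMURF2, a ubiquitin ligase that SMAD7 brings to the receptors, fell to 28.5 and 19.3 CPM in the resistant libraries, against 53.6 and 56.5 CPM in the parental libraries (adjusted p = 0.0359 in edgeR). DAB2, an endocytic adaptor linked to receptor trafficking, fell to 62.6 and 52.3 CPM, against 103 and 101 CPM in the parental libraries (adjusted p = 0.0387 in edgeR). The DAB2 call ended without parental replicate 1 (adjusted p = 0.372) or 2 (0.342), and that of SMURF2 without parental replicate 2 (0.0728). SMAD proteins and their corepressors had 0 of 15 called by edgeR in either direction and 0 by DESeq2, against 6.37% and 10.5% of all tested genes. Of the 15, 2 had an unadjusted p under 0.05, against 27% of all tested genes, and the median log2 fold change was -0.20. SMAD3, the SMAD most tied to TGF-beta targets, had 253 and 175 CPM in the resistant libraries and 193 and 203 CPM in the parental libraries. TGIF1, a SMAD corepressor, measured 101 and 113 CPM in the 2 resistant libraries and 118 and 126 CPM in the parental libraries (log2 fold change -0.20, adjusted p = 0.423 in edgeR).

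TGF-beta response genes, a list that holds LTBP2 and TGFBI, were lower in 5 of 25 tested and higher in 0. The other 20 missed the threshold. That is 20.0% called, against 6.37% of all tested genes, with a median log2 fold change of -0.20. An unadjusted p under 0.05 in either direction was reached by 10 of the 25, against 27% of all tested genes. DESeq2 called 7 lower and 1 higher, where 5.76% of all tested genes were lower and 4.76% higher. TAGLN, an actin-binding protein, fell to 3.30 and 6.99 CPM in the resistant libraries, against 119 and 107 CPM in the parental libraries. FN1, fibronectin, fell to 3639.7 and 1796 CPM in the resistant libraries, against 32281 and 30997 CPM in the parental libraries. TAGLN had a log2 fold change of -4.47 ± 0.35 and FN1 of -3.54 ± 0.36 (adjusted p = 0.00426 and 0.00918 in edgeR). CDH2 and NUAK1, named after their values were seen, also fell (log2 fold changes -0.93 and -0.92, adjusted p = 0.0452 and 0.0446 in edgeR). Both calls ended without parental replicate 1 (adjusted p = 0.225 for CDH2 and 0.271 for NUAK1) or 2 (0.26 and 0.226). PMEPA1, a feedback inhibitor induced through SMAD3 and also chosen after its value was seen, was the 1 that DESeq2 called higher. It had 96.3 and 127 CPM in the resistant libraries and 62.6 and 71.1 CPM in the parental libraries (log2 fold change 0.74 ± 0.19, adjusted p = 0.0747 in edgeR and 0.0231 in DESeq2). Many of them also answer to other pathways.

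Other ligands of the superfamily had 1 of 7 tested members higher and 0 lower. That is 14.3% called, against 6.37% of all tested genes, with a median log2 fold change of 0.36. An unadjusted p under 0.05 was reached by 1 of the 7, against 27% of all tested genes. DESeq2 called 0 of them, where it called 10.5% of all tested genes. The 1 was INHBE, an activin subunit, with 2.59 and 2.56 CPM in the resistant libraries and 0.682 and 0.582 CPM in the parental libraries (adjusted p = 0.0439 in edgeR), which is below the level set for named genes. Its call ended without parental replicate 1 (adjusted p = 0.273) or 2 (0.364). GDF1, a superfamily ligand that is not on the list, had an adjusted p of 0.0596 in edgeR and of 0.000204 in DESeq2, higher in the resistant line on the counts given above. GDF15, a stress-induced ligand, measured 1777 and 1574 CPM in the 2 resistant libraries and 1326 and 1294 CPM in the parental libraries (log2 fold change 0.36, adjusted p = 0.197 in edgeR). INHBA, which forms activin A, had 777 and 443 CPM in the resistant libraries and 487 and 494 CPM in the parental libraries (log2 fold change 0.31, adjusted p = 0.488 in edgeR).

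**Figure D4:**
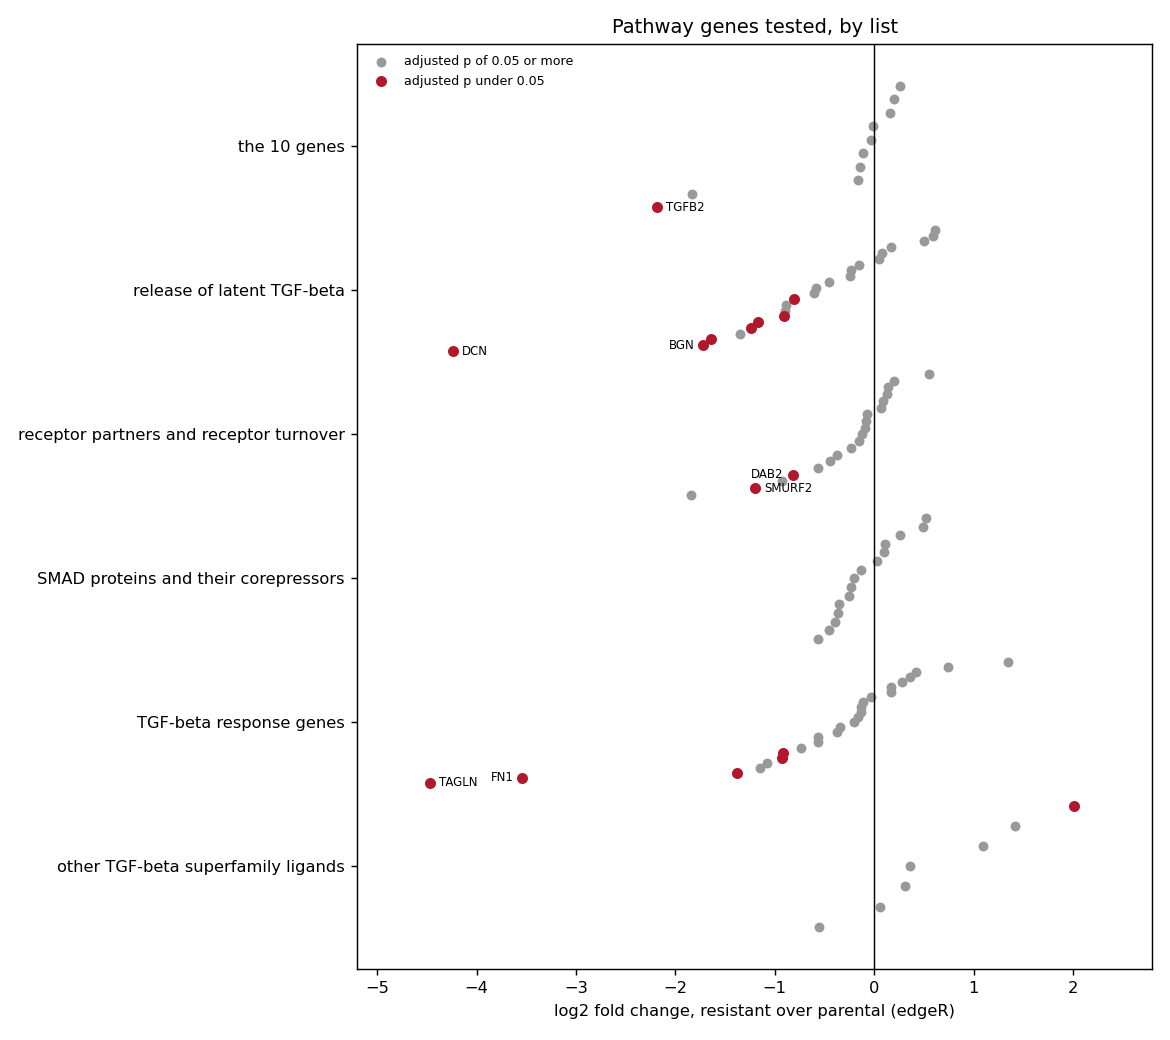
Log2 fold change of the resistant over the parental line (edgeR) for every tested gene of the 10 and of the 5 pathway lists, 1 point per gene, red where the adjusted p was under 0.05, with names for the 10 genes' call and the genes named by rule. The red points lie left of 0 except INHBE at 2.01, and the list on release of latent TGF-beta holds 7 of them.

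Leaving out resistant replicate 1 gave 18 higher and 41 lower calls in the lists. Leaving out resistant replicate 2 gave 13 higher and 31 lower. Of the 15 calls with all libraries, 9 were kept without parental replicate 1, and 7 without parental replicate 2. All 15 were called without either resistant library in turn, fits in which 52.8% and 35.1% of all genes were called, so nothing is read from that. Each of the 15 kept its direction in these 4 fits. With the length correction all 15 were kept, and with DESeq2 14 were. Of 9 fibroblast markers, some of which are also matrix targets of the pathway, between 5 and 7 had a count above 0 per library. The 9 markers summed to 30.39 and 35.81 CPM in the resistant libraries and 67.96 and 70.37 CPM in the parental libraries. COL1A2, COL3A1, THY1 and POSTN, which like PDGFRA missed the filter on low counts, had 0 to 5 counts in each library. PDGFRA, a defining fibroblast marker, had 0.388 CPM in resistant replicate 2 and 0 in the other libraries, and DCN, already counted above, was the 1 of 4 tested that edgeR called lower, with 0 higher, against 6.37% of all genes in either direction. DESeq2 called 3 of the 4 lower (COL1A1, LUM and DCN), against 10.5% of all genes. PDGFRB, the most abundant of the 4, had 19.3 and 19.0 CPM in the resistant libraries and 24.3 and 22.3 CPM in the parental libraries (adjusted p = 0.325 in edgeR). The part of such cells in the lower matrix genes was not tested. Blood and endothelial markers summed to at most 1.648 CPM in any library.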

How the data were processed

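RNA was measured in 2 resistant and 2 parental Caki-1 libraries. STAR, RSEM and DESeq2 1.40.2 are listed in the submitters' processing notes, with GRCh38 and hg19 as builds and no roles. The authors deposited RSEM estimated counts and TPM per gene symbol. The deposited estimated counts (3.16% not whole) were rounded here. The deposited TPM gave levels per length and effective lengths. H3K27ac peaks and inputs were not used here.

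Samples were grouped by title. Genes passing filterByExpr were TMM-scaled and compared in edgeR 4.0.16 (R 4.3.3) by quasi-likelihood F tests with no term besides the line and with Benjamini-Hochberg adjustment. The fits were tested on simulated data with the same spread in all libraries and no trend with gene length. The resistant pair departs from both, so that test does not show how the fits behave on it. Relative effective length is count over TPM, divided by each library's median over genes with 20 or more counts in all libraries. The 10 genes and all lists were chosen with earlier results of these data known. The genes named are these 10, then from each list up to 2 rises and 2 falls of largest size among called genes whose mean log2 CPM reached 2 and whose lines did not overlap (if none passed, the 2 most abundant), and the 3 genes nearest in pattern to TGFB2. Others are said in the text to be chosen after their values were seen.

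Alternatives were the DESeq2 1.42.0 test, DESeq2 size factors or library totals for scaling, a filter at only 1 count, and limma 3.58.1 on log2(TPM + 1) or log2(TPM + 0.1) where a gene reached 1 TPM in 2 libraries, or on log2(TPM + 1) without that filter. Each library was also left out in turn, and a replicate block and a threshold of 0.01 were tried. Correction for effective length, chosen after seeing the data, used a lowess trend of span 0.3 per library as offsets for 12532 genes. Library totals and the counts behind low values are given with the results. Of the genes called in the lists, 1 is not reported here by name.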

Additional observations from a re-analysis of the deposited data

How the results depend on the processing

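TGFB2 kept its direction in all 14 alternatives and its call in 13. It lost the call on log2(TPM + 1) without a filter (log2 fold change -1.72, adjusted p = 0.0715), where 0 of the 10 genes and 41 higher and 98 lower genes in all were called. LTBP1 was lower in all 14 and called in 5. Of the 10 genes, 2 were called lower with DESeq2, with a replicate block and with effective length correction. Leaving out each library gave 0 to 2 of them higher and 1 to 5 lower, 141 to 3374 genes higher and 264 to 3479 lower in all, and, in the pathway lists, 0 to 18 higher and 8 to 41 lower. The lone library left in a line was assumed to vary like the other line.

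All genes called numbered 609 higher and 737 lower with DESeq2, 243 and 282 on log2(TPM + 1), 217 and 243 on log2(TPM + 0.1), 860 and 1020 with the replicate block, 24 and 73 at a threshold of 0.01, and 949 and 1248 with effective length correction. With library totals the split was 531 and 373, against 379 and 436. In the pathway lists higher calls numbered 2 with library totals, 4 with the replicate block, 5 with effective length correction and 0 with no filter, on all 3 TPM settings and at 0.01. Lower calls there numbered 8 on log2(TPM + 1), 7 on log2(TPM + 0.1), 3 on log2(TPM + 1) without a filter and 3 at 0.01.

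Log2 fold changes that changed sign, none of them called in all libraries, were those without resistant replicate 2 of TGFB1 (-0.23), TGFB3 (-0.59), TGFBR1 (0.07), TGFBR2 (0.17), TGFBR3 (0.51), LTBP2 (0.16) and LTBP3 (-0.18), whose values without resistant replicate 1 were 0.53, 0.68, -0.39, -0.47, -0.90, -0.58 and 0.60 in the same order, and without resistant replicate 1 of TGFBI (0.09, against -0.17 without resistant replicate 2). With effective length correction they were TGFBR1 (0.06), TGFBR2 (0.03), TGFBR3 (0.14) and LTBP2 (0.05). With library totals they were TGFBR3 (0.09) and TGFBI (0.05), on the TPM settings TGFBI (0.08), and without parental replicate 2 TGFBR3 (0.14). The cause was not tested. Whether libraries with the same number shared a day or batch was not tested. Their deviations from the line means correlated at -0.05, a value that 2 libraries per line make the same for both numbers. The replicate block changed no call among the 10 genes except that of LTBP1. Counts of 9 to 58 limit TGFB3, TGFBR3 and LTBP1.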
